A study of Mus musculus with 2 samples.

Results

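The 10 genes described here code for proteins that bring fatty acids into a cell and carry them inside it: Lpl, Gpihbp1, Cd36, Slc27a1, Slc27a2, Slc27a4, Acsl1, Fabp3, Fabp4 and Fabp5. They were taken by their names on the array, and they have 19 of the 41174 different gene probes, among 19505 named genes. Of the genes, 4 have 1 probe, 3 have 2 probes and 3 have 3 probes. No further probe of these genes was found under another array name.

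The study set mice without PKGI (KO, PKGI-/-) against wild type littermates (WT), all of the C57BL/6N background. PKGI, the product of Prkg1, is a protein kinase that cGMP switches on. One Agilent array compared brown adipocytes grown in vitro from preadipocytes, per the series' text of a KO and a WT littermate, with KO in Cy3 (green) and WT in Cy5 (red). The other compared untreated BAT (brown adipose tissue, a fat depot that makes heat) from a KO and a WT mouse, with KO in Cy5 and WT in Cy3. The 4 RNA samples are thus KO culture, WT culture, KO tissue and WT tissue, 1 each. Age and sex of the animals, the deleted stretch of Prkg1 and the cells in which it was deleted are not given in the sources used here. Biological replicates were measured by quantitative PCR alone, and those values are not used here. As each comparison had a single array, nothing was tested, and a difference describes these RNA samples and not the genotypes. Neither comparison was repeated with swapped dyes, so how evenly both dyes report a given gene and how KO differs from WT cannot be told apart.

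Of the gene spots, 68.1% in KO culture, 70.1% in WT culture, 74.1% in KO tissue and 63.1% in WT tissue were well above background by the scanner software's own flag. Repeated spots of a probe had a pooled SD of 0.09 (log2, 195 probes) on the adipocyte array and 0.10 (185 probes) on the BAT array, which covers spotting and scanning alone. Every probe of the 10 genes had 1 spot. All 7 brown adipocyte markers were well above background in KO tissue, WT tissue and WT culture and 6 of 7 in KO culture, Ucp1 reading 7.20 in KO culture, 10.98 in WT culture, 15.63 in KO tissue and 17.47 in WT tissue. Prkg1 itself had a mean log2 ratio, KO over WT, of -1.03 in culture and -0.84 in tissue over 3 of its 4 probes. The tissue samples differed in sex-linked genes: Xist, transcribed from the inactive X chromosome, had a log2 ratio of 4.41 there and the Y-linked Eif2s3y -6.40, with Eif2s3y not well above background in KO tissue. In culture Xist had a log2 ratio of -3.36, with 6.83 in KO culture and 12.09 in WT culture at its brightest probe, while Eif2s3y was high in both (12.25 in KO culture and 12.37 in WT culture). High Xist beside high Y-linked RNA in WT culture goes against cells of a single male or female mouse. Sex and genotype therefore cannot be told apart in the tissue comparison, nor can the sex of the cells and genotype in the culture comparison, and the results in culture all rest on that WT sample.

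Fat cells take up fatty acids that lipoprotein lipase (Lpl) releases from circulating triglycerides at the capillary wall, where Gpihbp1 on endothelial cells holds the enzyme. Cd36 and the fatty acid transport proteins of the Slc27a family help fatty acids across the membrane, long-chain acyl-CoA synthetases such as Acsl1 activate them, and the small fatty acid binding proteins (Fabp) carry them through the cytoplasm. Brown fat burns these fatty acids to make heat, and it clears much triglyceride from blood when it is active.

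The windows of 250 bases before the start of Cd36 and Acsl1 are shown because both genes were lower in KO culture on every one of their probes, by 9.33-fold or more. RefSeq (GRCm38.p6) start sites gave windows for 6 of the 10 genes. Fabp4, which was lower by 17.8-fold or more on each of its probes, had no window there, nor had Lpl. Capitals mark a GC box (GGGCGG) or a CCAAT box (CCAAT), each searched on both strands, so that CCGCCC and ATTGG are the same motifs on the other strand.
Cd36, chr5:17835897-17836146, minus strand: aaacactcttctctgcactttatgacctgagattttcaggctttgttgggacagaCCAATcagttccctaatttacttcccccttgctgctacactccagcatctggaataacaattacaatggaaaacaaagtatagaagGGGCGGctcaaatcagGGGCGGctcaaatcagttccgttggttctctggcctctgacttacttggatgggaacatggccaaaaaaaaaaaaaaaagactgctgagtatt
Acsl1, first start, chr8:46470787-46471036, plus strand: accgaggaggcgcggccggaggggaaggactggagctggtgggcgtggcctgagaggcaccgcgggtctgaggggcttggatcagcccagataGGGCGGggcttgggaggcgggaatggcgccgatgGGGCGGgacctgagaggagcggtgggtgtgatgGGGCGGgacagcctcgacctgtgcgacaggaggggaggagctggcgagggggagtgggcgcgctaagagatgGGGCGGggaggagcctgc
Acsl1, second start, chr8:46490716-46490965, plus strand: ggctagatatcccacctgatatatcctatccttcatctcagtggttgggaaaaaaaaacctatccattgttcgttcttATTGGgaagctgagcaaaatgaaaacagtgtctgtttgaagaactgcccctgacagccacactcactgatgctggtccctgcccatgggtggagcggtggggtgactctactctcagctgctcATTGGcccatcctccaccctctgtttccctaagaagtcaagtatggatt
The Cd36 window held 2 GC boxes and 1 CCAAT box. The first Acsl1 window held 4 GC boxes, and the second held 2 CCAAT boxes and no GC box. Among all 32851 windows of the same length in the table, 32.7% held a GC box and 33.8% a CCAAT box. Neither TATAAA, which 12.4% of all windows held, nor the PPAR and RXR consensus (AGGTCA, any base, AGGTCA), which 0.0335% held, was found in these 3 windows on either strand. A match is a string of letters, not a site shown to be bound.

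In KO culture, 4 of the 9 genes measured lay at least 2-fold below WT (log2 ratio of -1 or below) and 0 lay at least 2-fold above, where 4.17% of all 15115 genes on that array were lower and 2.49% higher. The 4 were Fabp4, Acsl1, Cd36 and Lpl. The median log2 ratio of the 9 genes was -0.50, with 8 below 0, against 0.00 over all genes. In tissue, 1 of 10 was at least 2-fold lower, Fabp3, and 0 were higher, where 2.44% of all 15616 genes were lower and 0.800% higher. The median of the 10 was -0.15, with 8 below 0, against 0.00 over all genes. By single probes, 10 of the 16 kept in culture were at least 2-fold lower and 15 lay below 0. Those 10 were all the probes of Fabp4, Acsl1, Cd36 and Lpl, so they repeat the gene count. Of the 18 kept in tissue, 1 was at least 2-fold lower, that of Fabp3, 11 lay below 0 and 7 above. No share over all probes stands beside these probe counts, so they describe the members alone. Probes dim in both channels were dropped, and the remaining probes of a gene were averaged.

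**Figure D1:**
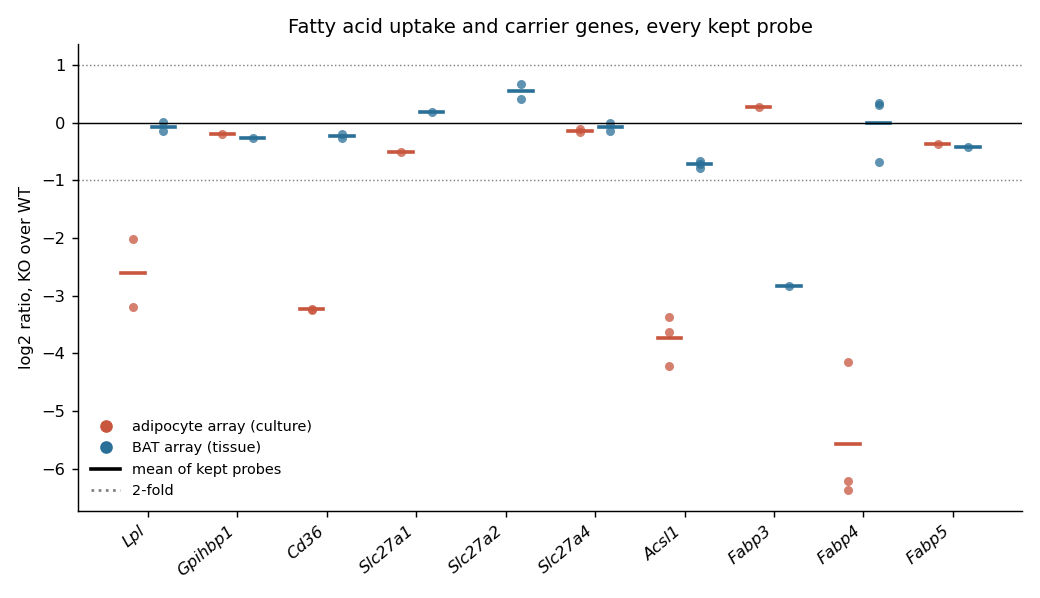
Log2 ratio of KO over WT (y axis) for every kept probe (points) and the mean of the kept probes (bars) of the 10 genes (x axis), for the adipocyte array and the BAT array, with dotted lines at 2-fold. In culture the points of Lpl, Cd36, Acsl1 and Fabp4 all lie below the lower line, and in tissue the single point of Fabp3 does, at -2.83.

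Lpl, the lipase that frees fatty acids from triglyceride, was 6.11-fold lower in KO culture (log2 -2.61) and had a log2 ratio of -0.07 in tissue. Its probe at chr8:67361126-67361185 had a channel level of 13.18 in KO culture and 16.38 in WT culture, against 16.20 in KO tissue and 16.19 in WT tissue. Channel levels are log2 intensities in arbitrary units after normalization, set side by side here for 1 probe and not between probes. KO and WT of a pair shared an array. Culture and tissue were on different arrays, with each genotype in the other dye, so array, dye and sample cannot be told apart between them. This limit holds wherever all 4 samples are ordered below. The KO culture thus stood apart and the other 3 samples lay close together. The second probe, at chr8:67355909-67355968, gave 13.31 and 15.33 in KO and WT culture and 14.99 and 15.13 in KO and WT tissue. The KO culture was again the low sample, by 4.06-fold against WT culture on this probe and by 9.17-fold on the first. Probe coordinates are those of the array files, for which the sources used here name no genome build, so no exon or UTR is given for a probe.

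Gpihbp1, the endothelial anchor of Lpl, separated culture from tissue and, as processed here, not KO from WT. Its single probe (chr15:75680602-75680661) had levels of 7.80 in KO culture and 7.996 in WT culture, against 14.76 in KO tissue and 15.02 in WT tissue. Log2 ratios of KO over WT were -0.20 in culture and -0.26 in tissue, both under 2-fold as given. Over the other processings the tissue ratio ranged from -1.10, with the shift of the spiked-in control RNAs subtracted, to 0.46 without loess. Culture lay 125-fold below tissue in KO and 130-fold below in WT. All 10 endothelial markers were also at least 2-fold lower in culture than in tissue, in KO (median log2 -5.55) and in WT (median -5.51). Their summed level was 2468 in KO culture and 2611 in WT culture, against 125036 in KO tissue and 145114 in WT tissue. Tie1 and Emcn were not well above background in either culture channel, nor were Pecam1 and Cdh5 in KO culture and Esam in WT culture. The part of these markers in the Gpihbp1 values was not tested. In such bulk RNA, fewer cells of a type and less RNA per cell cannot be told apart.

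Cd36, a membrane receptor that binds long-chain fatty acids and helps take them up, was 9.43-fold lower in KO culture (log2 -3.24). The probe at chr5:16796811-16799243 read 10.16 in KO culture and 13.38 in WT culture, against 14.95 in KO tissue and 15.21 in WT tissue. The probe at chr5:16796301-16796360 read 9.96 in KO culture and 13.21 in WT culture, against 15.09 in KO tissue and 15.29 in WT tissue. Both probes put the samples in one order, KO culture lowest, then WT culture, then the tissue pair. The probes' ratios in culture, -3.22 and -3.25, differed by less than the spread between spots of a probe. In tissue the mean log2 ratio was -0.23, under 2-fold as processed here.

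None of the fatty acid transport proteins passed 2-fold between genotypes as processed here. Slc27a1 (FATP1), a transport protein and acyl-CoA synthetase of fat and muscle, had levels of 10.09 in KO culture and 10.60 in WT culture, against 13.12 in KO tissue and 12.92 in WT tissue at its single probe (chr8:70053519-70053578). Its log2 ratios were -0.50 in culture and 0.19 in tissue, and the larger gap was between culture and tissue, 8.13-fold lower in KO culture and 5.03-fold lower in WT culture. Slc27a4 (FATP4), another member of the family with synthetase activity, was the gene closest to level over the 4 samples. Its brighter probe (chr2:29822906-29822965) read 9.19 in KO culture, 9.30 in WT culture, 9.05 in KO tissue and 9.19 in WT tissue. The dimmer probe (chr2:29824195-29824255) read 7.06, 7.23, 6.47 and 6.47 in the same samples, with the WT tissue value not well above background. Mean log2 ratios of KO over WT were -0.14 in culture and -0.07 in tissue.

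Slc27a2 (FATP2), a very-long-chain acyl-CoA synthetase best known from liver and kidney, was measured in tissue but not in culture. At chr2:126328667-126328726 its brightest probe read 14.10 in KO tissue and 13.68 in WT tissue, and 6.10 and 6.04 in KO and WT culture. At chr2:126305532-126305591 a second probe read 10.07 in KO tissue and 9.39 in WT tissue, and 5.99 and 5.95 in KO and WT culture. None of the culture values was well above background. Another probe (chr2:126262207-126262266), designed on another transcript record, was not well above background in any of the 4 samples. The mean log2 ratio in tissue was 0.55. On the brightest probe culture was set at 225-fold lower than tissue in KO and 181-fold in WT, and on the dimmer one at 13.7-fold and 9.28-fold. Each fold sets the tissue level against the higher of the probe's own culture level and the lowest level called well above background there. The probe dim in all samples read 6.30 in WT culture, above that lowest level of 6.18, so these folds are not strict bounds.

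Acsl1, the main long-chain acyl-CoA synthetase of fat, was 13.4-fold lower in KO culture (log2 -3.74) and had a log2 ratio of -0.72 in tissue, where Cd36, Lpl and Fabp4 lay between -0.23 and -0.00. Its brightest probe (chr8:45313747-45313806) read 11.11 in KO culture and 15.33 in WT culture, against 16.03 in KO tissue and 16.70 in WT tissue. The probe at chr8:45312289-45312348 read 8.61 in KO culture and 12.24 in WT culture, against 13.19 in KO tissue and 13.97 in WT tissue. The probe at chr8:45312597-45312656 read 8.88 in KO culture and 12.24 in WT culture, against 13.30 in KO tissue and 14.01 in WT tissue. All 3 probes ordered the samples alike, with KO below WT in both pairs. The ratios spread from -4.23 to -3.37 in culture (SD 0.44 over 3 probes) and from -0.78 to -0.67 in tissue (SD 0.06). The tissue ratio was under the 2-fold call as given, but moved between -1.56 with the shift of the spiked-in control RNAs subtracted and -0.03 without loess.

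Fabp3, the carrier known from heart and skeletal muscle that brown fat also makes, was the one gene of the 10 past 2-fold in tissue as processed here. With the spiked-in shift subtracted 5 of the 10 were past 2-fold lower there, and without loess Slc27a2 was past 2-fold higher (1.09). Its single probe (chr4:129760011-129760070) read 10.77 in KO culture and 10.50 in WT culture, against 11.11 in KO tissue and 13.94 in WT tissue. Here the WT tissue stood apart and the KO tissue lay close to both cultures. Fabp3 was 7.10-fold lower in KO tissue (log2 -2.83), and its log2 ratio in culture was 0.27. It ranked 18 from the lowest of 13477 genes well above background in both channels of the BAT array.

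On that array all 18 skeletal muscle markers were at least 2-fold lower in KO too (median log2 -2.36, between -3.31 and -1.13). Their summed level was 96931 in KO tissue and 536649 in WT tissue, and all 18 were well above background in both. In culture 0 of 17 kept were lower and 1, Acta1, was higher (log2 1.52). Brown adipocyte markers were lower in KO tissue for 3 of 7, Ucp1 (-1.84), Elovl3 (-2.14) and Dio2 (-1.07), and higher for 1, Cidea (1.01). The other 3 brown markers lay between -0.38 and -0.12, and the list's median was -0.38. The muscle list thus moved with Fabp3 as a whole and the brown list in part, and their part in its ratio was not tested. By the Euclidean distance of the 4 channel levels, each centred on the gene's own mean, the genes most like Fabp3 among 12673 were Lmod3 (0.38), Acot11 (0.58) and Eno3 (0.59). Their log2 ratios in tissue were -2.67, -1.62 and -2.32. As these genes were picked by the levels that give the ratios, a likeness in ratio follows from the choice.

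Fabp4, the abundant carrier of fat cells also called aP2, had the lowest value of the 10 genes in culture, 47.7-fold lower in KO (log2 -5.58). It ranked 2 from the lowest of 14419 genes well above background in both channels of the adipocyte array, where Acsl1 ranked 17, Cd36 31 and Lpl 55. The probe at chr3:10212718-10213447 read 11.10 in KO culture and 17.31 in WT culture, against 17.50 in KO tissue and 17.19 in WT tissue. Its neighbour at chr3:10212636-10212696 read 10.95 in KO culture and 17.32 in WT culture, against 17.17 in KO tissue and 16.82 in WT tissue. On both, WT culture lay close to the tissue samples and KO culture stood alone, 73.9-fold and 82.3-fold below WT culture.

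The third probe of Fabp4 (chr3:10216627-10216686) differed from the other two. It read 8.11 in KO culture and 12.27 in WT culture, against 14.77 in KO tissue and 15.45 in WT tissue. KO culture was again lowest, by 17.8-fold, but WT culture lay below both tissue samples. In tissue the 3 probes gave log2 ratios of 0.32, 0.35 and -0.67, so the gene mean of -0.00 averages values of opposite sign (SD 0.58), and the tissue direction of Fabp4 depends on the probe. The genes most like Fabp4 over the 4 samples were Mrap (distance 0.90), Rgcc (0.94) and Gpd1 (1.08), with log2 ratios in culture of -4.41, -4.39 and -4.41. Low ratios follow here too from picking genes by the same levels.

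Fabp5, the epidermal carrier that fat cells and macrophages also make, did not follow Fabp4. Its single probe (chr3:10022040-10022099) read 9.07 in KO culture and 9.44 in WT culture, against 7.33 in KO tissue and 7.75 in WT tissue. The log2 ratios of KO over WT, -0.37 in culture and -0.42 in tissue, were under 2-fold and nearly alike as processed here. Over the other processings the tissue value ranged from -1.27, past 2-fold with the spiked-in shift subtracted, to -0.03 with outlier spots kept. The culture value ranged from -0.77 to -0.37, so the likeness depends on the processing. Both cultures lay above both tissue samples, by 3.33-fold in KO and 3.21-fold in WT.

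**Figure D2:**
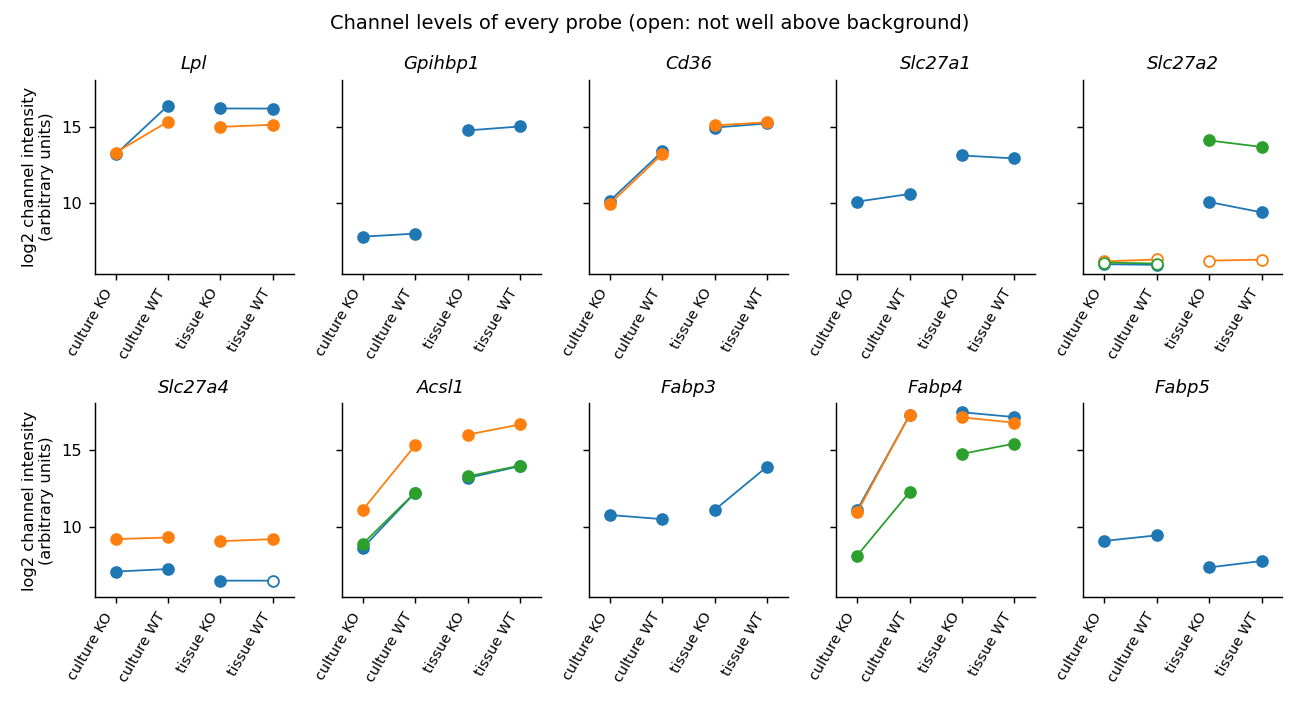
Channel level (y axis, log2 intensity in arbitrary units) of every probe of the 10 genes in KO culture, WT culture, KO tissue and WT tissue; each colour is 1 probe of the gene in that panel, lines join KO to WT of 1 array, and open circles are not well above background. Lpl, Cd36, Acsl1 and Fabp4 are lowest in KO culture on every probe, Fabp3 is highest in WT tissue, Fabp5 is higher in culture, and Gpihbp1 and Slc27a2 are near the lower end of the scale in both cultures.

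The mature adipocyte markers were low in KO culture as well. All 10 were at least 2-fold lower in KO culture (median log2 -3.26, between -5.67 and -2.15), among them the adipokine gene Adipoq (-5.22), the lipid droplet gene Plin1 (-4.38) and Pparg (-3.49), the nuclear receptor that drives fat cell differentiation. Their summed level was 9082 in KO culture and 147008 in WT culture, and Lep alone was not well above background in KO culture. Of 7 brown adipocyte markers, 4 were lower in KO culture (median -1.14, between -3.78 and 0.83). The lowest was Ucp1, the uncoupling protein of brown fat, and the highest was Dio2, above 0 but under 2-fold. Macrophage markers, of cells that also make Lpl, Cd36, Fabp4 and Fabp5, were lower in KO culture for 7 of 10 (median -1.79, between -3.63 and -0.59). Their summed level was 70151 in KO culture and 375672 in WT culture, and all 10 were well above background in both. The adipocyte and macrophage lists moved with the 4 low genes as a whole and the brown list in part, and their part in those ratios was not tested. In tissue, 0 of 9 mature adipocyte markers kept were lower and 1, Cfd, was higher (1.78; list median 0.30), and 0 of 10 macrophage markers passed 2-fold (median -0.03).

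**Figure D3:**
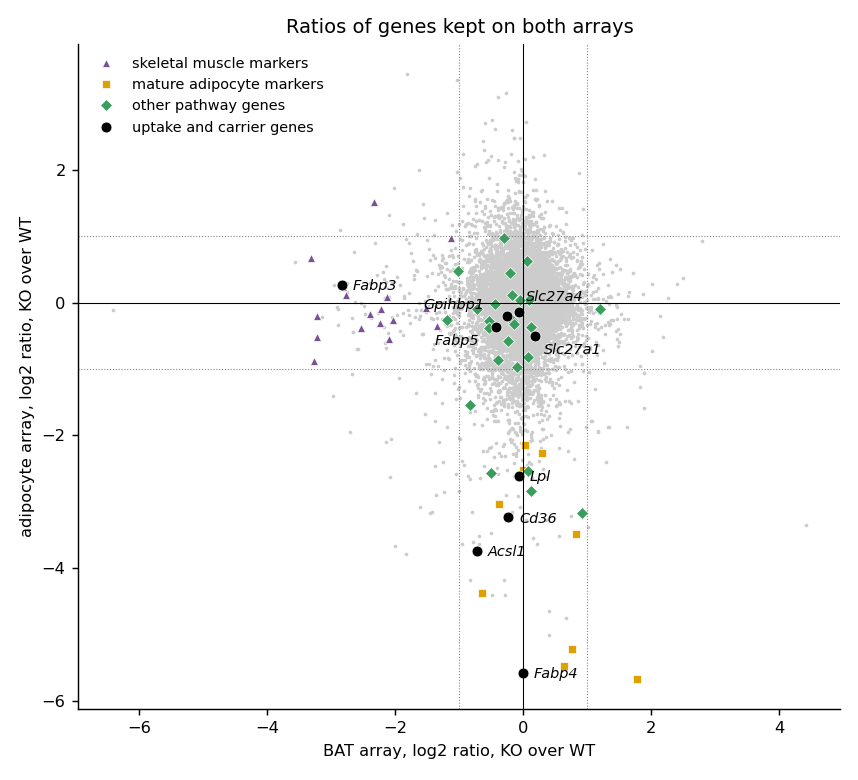
Log2 ratio of KO over WT on the BAT array (x axis) and on the adipocyte array (y axis) for genes kept on both (grey), with the uptake and carrier genes in black, the other genes of the pathway as green diamonds, skeletal muscle markers as purple triangles and mature adipocyte markers as orange squares; dotted lines mark 2-fold. Fabp3 lies at -2.83 on the x axis among the muscle markers, Fabp4, Acsl1, Cd36 and Lpl lie between -5.58 and -2.61 on the y axis among the adipocyte markers, and the other members shown lie within 2-fold on both axes.

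Culture and tissue were hybridised on different arrays with different dyes, so array, dye and sample cannot be told apart in the following differences. In KO, 7 of the 10 genes were at least 2-fold lower in culture than in tissue and 1 higher, against 17.5% lower and 18.6% higher of 16252 genes. In WT, 6 were lower and 1 higher, against 16.8% and 16.6%. The medians were -3.83 in KO and -1.79 in WT on the log2 scale, and over all genes 0.00 and 0.03. Fabp4 was 86.0-fold, Cd36 31.1-fold, Acsl1 25.0-fold and Lpl 5.09-fold lower in KO culture than in KO tissue. The WT values for the same genes were 3.88-fold lower for Cd36 and 3.08-fold lower for Acsl1, with log2 differences under 2-fold for Fabp4 (-0.85) and Lpl (0.19). The Fabp4 value in WT ranged from -1.28 to 0.12 over the 4 other processings of the levels, and the one at 0.12 used the brightest probe alone. Fabp3 had the opposite profile, with a log2 difference of -0.34 in KO and 10.8-fold lower in culture in WT. Its WT value moved with the skeletal muscle markers, of which all 18 were at least 2-fold lower in WT culture than in WT tissue (median log2 -5.30) and 14 of 18 in KO (median -2.58), and the part of muscle RNA in it was not tested. Macrophage markers were higher in culture for 6 of 10 in KO and 10 of 10 in WT (medians 1.45 and 2.83). Mature adipocyte markers were lower in culture for 9 of 10 in KO (median -5.63). In WT 6 of 10 were lower and 1 higher (median -2.56). Brown adipocyte markers were lower in culture for 6 of 7 in KO and in WT (medians -3.77 and -2.64). The drop was thus not particular to the uptake and carrier genes, and the part of these lists in their values was not tested.

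Of 35 other genes of fatty acid uptake, activation and carriage, 27 were measured in culture, with 5 of them past 2-fold lower in KO, 0 past 2-fold higher (median -0.26, with 19 below 0). Over all 15115 genes of that array, 4.17% were lower and 2.49% higher. Angptl4, a secreted inhibitor of Lpl, had a log2 ratio of -3.17 (10.18 in KO culture and 13.35 in WT culture). Apoc2, the cofactor that Lpl needs, was 7.19-fold lower (9.94 and 12.79). Ffar4, a receptor for long-chain fatty acids, was 5.92-fold lower (7.09 and 9.65), and Cav1, the coat protein of caveolae, 5.81-fold lower. Dbi, the acyl-CoA binding protein, was 2.92-fold lower (14.41 and 15.96). Genes of lipoprotein lipase handling, a fatty acid receptor, a membrane partner and a carrier are among these 5. The 3 other acyl-CoA synthetases measured in culture and the 4 lipoprotein receptors stayed under 2-fold.

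In tissue 28 of these 35 were measured, with 2 at least 2-fold lower in KO and 1 higher (median -0.19, with 20 below 0). Over all 15616 genes of that array, 2.44% were lower and 0.800% higher. Acsl5, an acyl-CoA synthetase, was 2.28-fold lower (11.16 in KO tissue and 12.35 in WT tissue) and Acsl3, of the same family, 2.02-fold lower (9.48 and 10.49). Neither call held without loess or with outlier spots kept in the background fit, each of which gave 0 pathway genes lower, whereas the spiked-in shift gave 16. Lrp1, a large receptor that clears lipoprotein remnants, was 2.29-fold higher as the mean of its 2 probes, but its brighter probe alone gave 12.42 in KO tissue and 11.65 in WT tissue, under 2-fold. None of the 5 genes lower in culture passed 2-fold in tissue, and Angptl4 had a log2 ratio of 0.92 there.

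The sign or the 2-fold call of tissue ratios other than that of Fabp3 depended on the scaling. Without loess, 4 of the 10 genes had a log2 ratio below 0, and with the shift of the spiked-in control RNAs subtracted all 10 did, as the median of all genes then lay at 0.25 and -0.84. Over the 10 other processings tried, Fabp3 in tissue ranged from -3.67 to -2.25. In culture Fabp4 ranged from -6.21 to -5.57, Acsl1 from -4.23 to -3.74, Cd36 from -3.64 to -3.20 and Lpl from -3.20 to -2.56. These 5 values passed 2-fold in every one of the 10, but not all of the 10 could move them. Naming by accession left every member unchanged, and the deposited table repeats Feature Extraction's ratio. The filter settings left these 5 unchanged, and the brightest probe could not move Fabp3, which has 1 probe. Fabp3 in culture lay between -0.15 and 0.30, with the sign turned without loess.

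**Figure D4:**
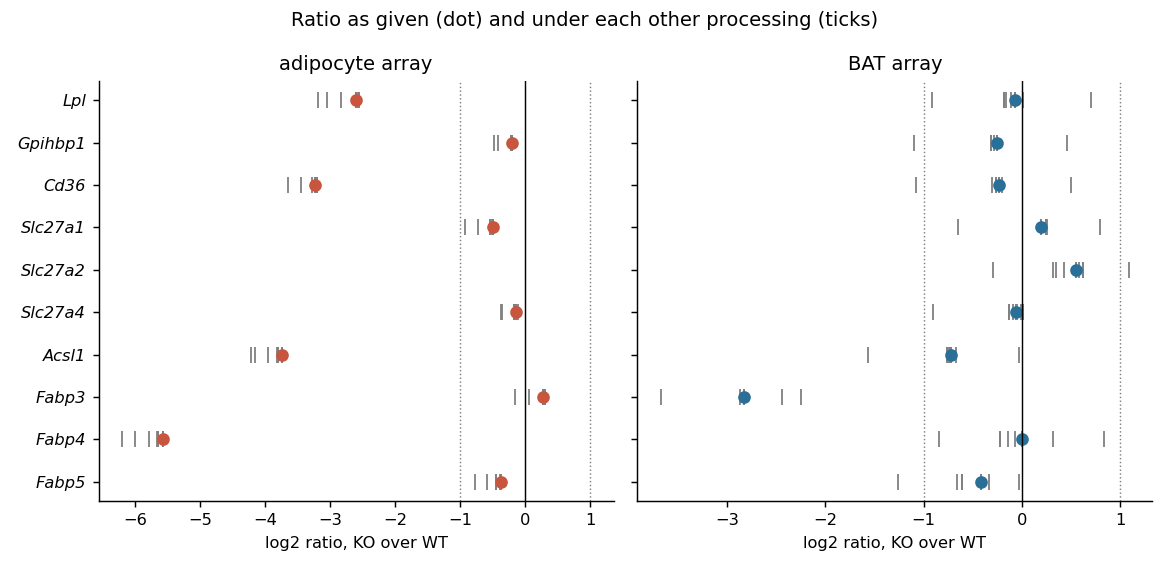
Log2 ratio of KO over WT (x axis) of each gene (rows) on the adipocyte array (left panel) and the BAT array (right panel), as given (dot) and under each of the 10 other processings (ticks); dotted lines mark 2-fold. The values of Lpl, Cd36, Acsl1 and Fabp4 in culture and of Fabp3 in tissue stay beyond the lower line, while most tissue values have ticks on both sides of 0.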

How the data were processed

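RNA was extracted with Trizol and labelled with the Agilent Low RNA Input amplification kit, per the labels' protocols. The deposited scanner files hold spot intensity (mean signal and median local background per dye) from Agilent Feature Extraction 9.5.1.1, protocol GE2-v5_95_Feb07, per the file headers. The same deposited files give the log10 ratio of red over green, and the authors' deposited value table holds that log10 ratio as KO over WT on both arrays, with all-gene medians of 0.05 (adipocyte array) and 0.08 (BAT array) on the log2 scale.

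From the intensities, ratios were computed with limma 3.58.1 in R 4.3.3. Each array had 45018 spots, 1639 of them controls. Spots flagged as outliers (203 gene spots on the adipocyte array and 1215 on the BAT array) were not used. Normexp (saddle, offset 50) corrected the background, and loess with controls at weight 0 was run within each array. Channel levels were scaled between arrays with Aquantile. The offset understates ratios of dim probes. Spots of a probe were averaged, kept probes of a gene were averaged, and genes were called at 2-fold, with no test because each comparison had 1 array. Summed marker levels add the linear level of each gene's brightest probe, so bright genes weigh most. Other genes were named through RefSeq GRCm38.p6 by accession (22951 probes), symbol (6659) or unique synonym (3109), and 8455 probes matched none. The steps were tested on simulated data.

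The members, gene lists, outlier flags and processing were chosen with earlier results of these data known. All members and their probes are named, with pathway genes past 2-fold, the 3 genes nearest Fabp3 and Fabp4, Prkg1 and sex-linked genes; marker genes named singly were picked after their values were seen. The labels' number 1 for both arrays does not pair them. Alternatives tried were the outlier spots, offset, loess, Feature Extraction's ratio, the deposited table, the filter, the brightest probe, the spiked-in shift and naming by accession.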

Additional observations from a re-analysis of the deposited data

Results flagged for a closer look

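Fabp3 had log2 ratios of KO over WT on opposite sides of 0 in the 2 comparisons, 0.27 in culture and -2.83 in tissue. The difference between the comparisons was not tested, as each had 1 array. The culture value turned to -0.15 without loess, while the tissue value stayed between -3.67 and -2.25 over the 10 other processings. The skeletal muscle markers had a median of -0.17 in culture and -2.36 in tissue.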

How the results depend on the processing

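No paired analysis was possible because each comparison had 1 array with 1 KO and 1 WT sample. Of 116 alternative values of the counts and medians, 96 stayed within the margin (1.5 times for a count, the spread between spots of a probe for a median). This tally, and that of single members below, includes settings that could not move a member, such as naming by accession. The deposited table repeats Feature Extraction's ratio, so its values are counted again. In culture, the median of the members was -0.93 without loess and -0.72 with the spiked-in shift subtracted, against -0.50 as given. The pathway genes at least 2-fold lower in KO culture were 8 with the spiked-in shift, and those higher were 1 with offset 0, 2 with Feature Extraction's ratio and 2 with the deposited table. In tissue without loess, 1 member was higher (Slc27a2), the member median was 0.48, and 0 pathway genes were lower and 2 higher. With the spiked-in shift 5 members were lower, the median was -0.99, and 16 pathway genes were lower and 0 higher. With outlier spots kept in the background fit, 0 pathway genes were lower and 0 higher in tissue. Feature Extraction's ratio and the deposited table gave 5 lower, and the brightest probe per gene gave 0 higher. With Feature Extraction's processed signal 2 members were higher in WT culture than in WT tissue (Slc27a4 beside Fabp5), against 1. Of 268 alternative values of single members, 14 had the other sign, none of them a value called at 2-fold as given. The median of all genes moved to -0.26 (culture) and 0.25 (tissue) without loess and to -0.22 and -0.84 with the spiked-in shift. On the BAT array all genes split into 381 lower and 125 higher as given, 71 and 38 with outlier spots kept, 409 and 672 without loess, 835 and 385 with offset 0, 950 and 1402 with Feature Extraction's ratio, and 4576 and 17 with the spiked-in shift. On the adipocyte array the split was 631 and 377 as given, 1246 and 194 without loess, 956 and 876 with Feature Extraction's ratio and 974 and 205 with the spiked-in shift. The cause of these differences was not tested. Signal over background limits Slc27a2 in culture and the dimmer Slc27a4 probe in WT tissue.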
